A study of Mus musculus with 36 samples.

Results

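MicroRNA variants with a shifted first base were examined in small RNA libraries of sorted mouse small-intestinal cells. Such variants are called isomiRs. The deposited table names most of its entries as a miRNA followed by an offset, and the entries considered here carry the offset suffix "_-_1". They are read here as isomiRs whose 5′ end lies 1 base before the start the authors used as reference, and are called early-start isomiRs. The files do not state how the offset was counted, nor hold the reads' first bases, so this reading was not tested. Of 2670 entries, 638 had no offset and 302 carried this suffix. After 18 entries with names beginning mmu-mir-51 were left out, 284 remained, and 116 of them reached a normalised value of 10 in at least 2 libraries. These are the members. They were chosen by the level of the isomiR, so that level is given as a description only. The comparisons use the isomiR as a percentage of the entry of the same name without an offset, called the reference entry. The level of the isomiR is the numerator of this percentage, so the rule bears on the percentage too. A miRNA with a low reference could become a member only with a high percentage. A reference entry was present for 113 members, and in 112 both entries were listed in at least 1 library. The exception was mir-1843b-3p. For mir-29a-3p, mir-29b-1-3p and mir-29b-2-3p no ratio was analysed here.

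The libraries came from small intestine of mice whose strain is labelled C57BL6/2J, and the cells were sorted by flow cytometry. Paneth cells had 6 libraries, tuft cells 3 (numbers 1, 3 and 4), Lgr5 High cells 2, and the other 5 populations, CD24Low, goblet and the fractions Sox9 High, Sox9 Low and Sox9 Negative, 4 each. No gene was targeted and no agent is named in the labels, apart from the library codes of sample number 3 in each Sox9 fraction, which carry HFD where those of the other numbers carry chow. Sox9 High, Low and Negative libraries of 1 number share a further code in their labels, whose meaning is not stated. The animals' age and the reporter or antibody behind each gate were not given in the sources used here. Because sorted cells were lysed in bulk, fewer cells of a type and less RNA per cell cannot be told apart. The library codes also name sequencing lanes by number. Whether libraries of 1 lane number were sequenced in the same run was not tested. All Sox9 Low libraries and Sox9 High 3 carried lane 1, the other 3 Sox9 High libraries lane 2, Sox9 Negative 3 and 4 lane 4, Sox9 Negative 1 and 2 lane 5, Paneth 1 to 4 lane 6 and Lgr5 High lane 8. CD24Low libraries carried no lane. Goblet, tuft and Paneth 5 and 6 libraries carried no lane either and shared 1 format of code. These 8 sets are called label groups below. Population and label group cannot be told apart outside the comparisons given within lane 1 and within the shared format. The CD24Low set and lanes 2, 4, 5, 6 and 8 each hold 1 population only. Lane 1 holds Sox9 Low and 1 Sox9 High library, and the shared format holds goblet, tuft and Paneth 5 and 6.

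A miRNA finds its targets mainly through its seed, bases 2 to 8 counted from its 5′ end. The 5′ end of each arm is set by the cuts of Drosha and Dicer in the hairpin precursor, and a read that starts 1 base earlier carries a shifted seed. IsomiRs with a shifted 5′ end are a regular by-product of this cutting, at shares that differ from precursor to precursor.

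The sequences below belong to members on which the results turn. Each early start is written as the RefSeq mature miRNA of GRCm38.p6 preceded by the base before it in the hairpin. They were built from the reference, and the first bases of the counted reads are not known. Capitals mark the seed. The unshifted miR-26a-5p is placed first so that the shift can be seen, and miR-26a-1 and miR-26a-2, which are the same mature miRNA encoded at 2 loci, differ in the base before it.
miR-26a-5p, unshifted: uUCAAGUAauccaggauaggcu
miR-26a-1-5p, early start: gUUCAAGUaauccaggauaggcu
miR-26a-2-5p, early start: aUUCAAGUaauccaggauaggcu
miR-26b-5p, early start: gUUCAAGUaauucaggauaggu
miR-141-3p, early start: cUAACACUgucugguaaagaugg
miR-200c-3p, early start: cUAAUACUgccggguaaugaugga
let-7d-5p, early start: aAGAGGUAguagguugcauaguu
miR-101a-3p, early start: gUACAGUAcugugauaacugaa
miR-101b-3p, early start: gGUACAGUacugugauagcu
miR-194-1-5p, early start: gUGUAACAgcaacuccaugugga
miR-194-2-5p, early start: cUGUAACAgcaacuccaugugga
miR-345-3p, early start: cCCUGAACuaggggucuggagac
miR-425-3p, early start: cAUCGGGAaugucguguccgcc
miR-677-5p, early start: cUUCAGUGaugauuagcuucuga
miR-1843b-5p, early start: cAUGGAGGucucugucugacuu
miR-103-1-3p, early start: aAGCAGCAuuguacagggcuauga
The mature miR-26a-1 lies at chr9:119031811-119031832 on the plus strand of GRCm38.p6, in an intron of Ctdspl. That of miR-26a-2 lies at chr10:126995543-126995564 on the plus strand, in an intron of Ctdsp2, and miR-26b lies at chr1:74394324-74394344 on the plus strand, in an intron of Ctdsp1. These 3 hosts are related small phosphatase genes. The 3p arms of miR-141 (chr6:124717917-124717938) and miR-200c (chr6:124718324-124718346) lie on the minus strand beside each other, outside annotated host genes. RefSeq entries matched 89 members and gave the preceding base of 88. miR-375-3p, miR-21-5p and miR-378-3p are among the members named only.

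The 116 members fell into 62 from the 5p arm, 49 from the 3p arm and 5 with no arm in their name. Library depth ranged from 475678 to 30958439 reads, a 65.1-fold range. The deepest population, CD24Low, listed the most members and the shallowest, goblet and tuft, the fewest, but between them the numbers did not follow depth: Lgr5 High libraries, with at least 16013732 reads, listed a number of members within the ranges of the shallower Paneth and Sox9 High libraries. CD24Low libraries listed 104 to 112 members, Paneth libraries 55 to 87 and Lgr5 High libraries 62 to 73. The Sox9 fractions listed 60 to 88 (High), 42 to 74 (Low) and 40 to 66 (Negative), goblet libraries 19 to 32 and tuft libraries 14 to 24. Entries under 10 reads are listed at 0, so a member that is not listed is not shown to be absent. The 6 members listed in all 31 libraries were miR-375-3p (mean normalised value 8752), miR-26a-2-5p (723), miR-26a-1-5p (723), miR-200c-3p (618), miR-141-3p (559) and let-7d-5p (516). At the other end, 38 members were listed in 10 libraries or fewer. At the edge of the rule, the second highest values were 10.5 for mir-19b-2-3p, 11.6 for mir-328-3p and 12.1 for mir-25-3p inside it, and 9.77 for mir-1843-3p, 9.31 for mir-1964-3p and 9.13 for mir-181b-2-5p outside it.

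Most members were minor products beside their reference. The median percentage of reference, taken over the libraries where both were listed, was under 1% in 51 of the 112 members, between 1% and 10% in 31, between 10% and 100% in 20, and over 100% in 10. It ran from 0.0398% to 585%. These shares hold for the members only, since the rule on isomiR level favours high percentages where the reference is low. The median was 0.691% over members of the 5p arm and 1.55% over the 45 of the 3p arm with a ratio. Together, all entries with this suffix held 0.177% to 1.11% of a library's summed value, and those with the opposite suffix held 2.08% to 5.38%. Of 89 names with both isomiRs, the later start was higher in 62 and the earlier start in 26, each by its median. The earlier start was the higher one for miR-375-3p, where the later start held a median 0.164 of its level over 31 libraries, for miR-141-3p (0.299 over 29) and for miR-423-3p (0.144 over 24).

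**Figure D1:**
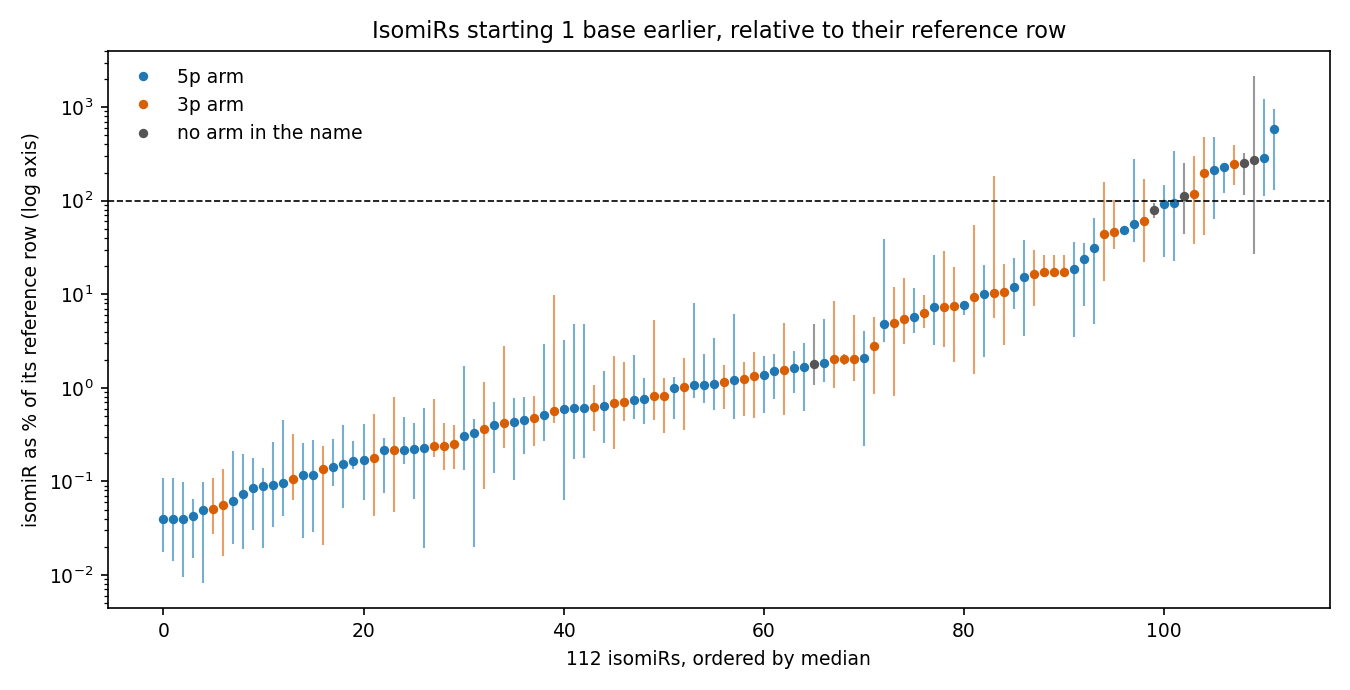
Early-start isomiRs as a percentage of their reference entry, for the 112 members with a ratio, ordered by their median; the y axis is logarithmic. Points are medians over the libraries that listed both entries, vertical lines run from the lowest to the highest such library, colours give the arm, and the dashed line marks 100%; 10 members lie above it.

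For 10 members the isomiR exceeded its reference in the median library. Their early start was thus the more frequent of the 2 starts in that library, though not in every library for each member. miR-677-5p, from chr10:128085291-128085312 (plus strand, GRCm38.p6) in an intron of Atp5b, was at a median 585% of reference, with a range of 130% to 946%, and lay above 100% in 23 of 23 libraries. miR-1843b-5p, at chr1:159340362-159340382 on the plus strand in an intron of Cop1 and an exon of the small RNA gene Scarna3a, was at 287% (111% to 1238%), above 100% in 28 of 28. miR-425-3p, from an exon of Dalrd3 at chr9:108568830-108568850 (plus strand), was at 244% (146% to 397%), above 100% in 22 of 22. These 3 isomiRs stayed above their reference wherever both were listed. In 1 further library, tuft 3, the miR-1843b-5p reference was listed with 62 reads and its isomiR was not. If an unlisted entry holds under 10 reads, the isomiR was at no more than 14.5% of reference there. The other 7 were mir-28c (270%, 4 of 5 libraries), mir-378b (251%, 6 of 6), mir-467d-5p (231%, 5 of 5), mir-345-5p (212%, 7 of 9), mir-1306-3p (199.5%, 4 of 6), mir-345-3p (119%, 15 of 27) and mir-5099 (113%, 10 of 18). The reference entries of the first 5 of these were low, with mean normalised values of 1.56 to 7.41. Those of miR-677-5p, miR-425-3p and miR-1843b-5p were also modest, at 28.2, 53.6 and 65.3, so their percentages rest on small denominators.

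miR-345-3p, from chr12:108837027-108837048 (plus strand), crossed 100% between libraries and was above it in 15 of 27. Its isomiR stood at 34.5% and 45.5% of reference in Lgr5 High and at 67.8% to 83.9% in CD24Low libraries. It stood at 141.8% to 235% in Sox9 High, 102% to 302% in Sox9 Negative and 45.8% to 231% in Sox9 Low libraries. Which start was the major one therefore differed between libraries for this miRNA, with both Lgr5 High and all 4 CD24Low libraries below every Sox9 High library. In Paneth libraries 1 to 4 it was 144.1% to 225%, and in Paneth 5 and 6 it was 61.6% and 97.8%, so the 2 sets of Paneth libraries lay on opposite sides of 100%.

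The widest movement among the 6 members listed in all libraries was that of miR-26a-5p, an abundant miRNA of many tissues that acts in growth control. As a percentage of reference, the miR-26a-1 isomiR was 3.42, 3.22, 3.52 and 3.33 in CD24Low 1 to 4, and Lgr5 High 1 and 2 had 3.99 and 4.15. It was 4.43, 4.64, 4.82 and 4.51 in Paneth 1 to 4 but 0.342 and 0.402 in Paneth 5 and 6. It was 1.04, 1.16, 0.179 and 1.13 in Sox9 High 1 to 4 and 0.197, 0.183, 0.210 and 0.230 in Sox9 Low 1 to 4. Libraries of 1 population thus stood apart from each other where their lanes differed, and Sox9 High 3, in lane 1, stood with the Sox9 Low libraries of lane 1. In Sox9 Negative libraries it was 0.293 and 0.316 in numbers 1 and 2 and 0.975 and 1.10 in numbers 3 and 4. Goblet libraries gave 0.424, 0.419, 0.505 and 0.391, and tuft libraries 0.486, 0.616 and 0.406. Goblet, tuft and Paneth 5 and 6 libraries, of the shared format, overlapped at 0.342% to 0.616%. The isomiR rested on 29 to 70 reads in goblet and 46 to 69 in tuft libraries, and on up to 20187 elsewhere.

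**Figure D2:**
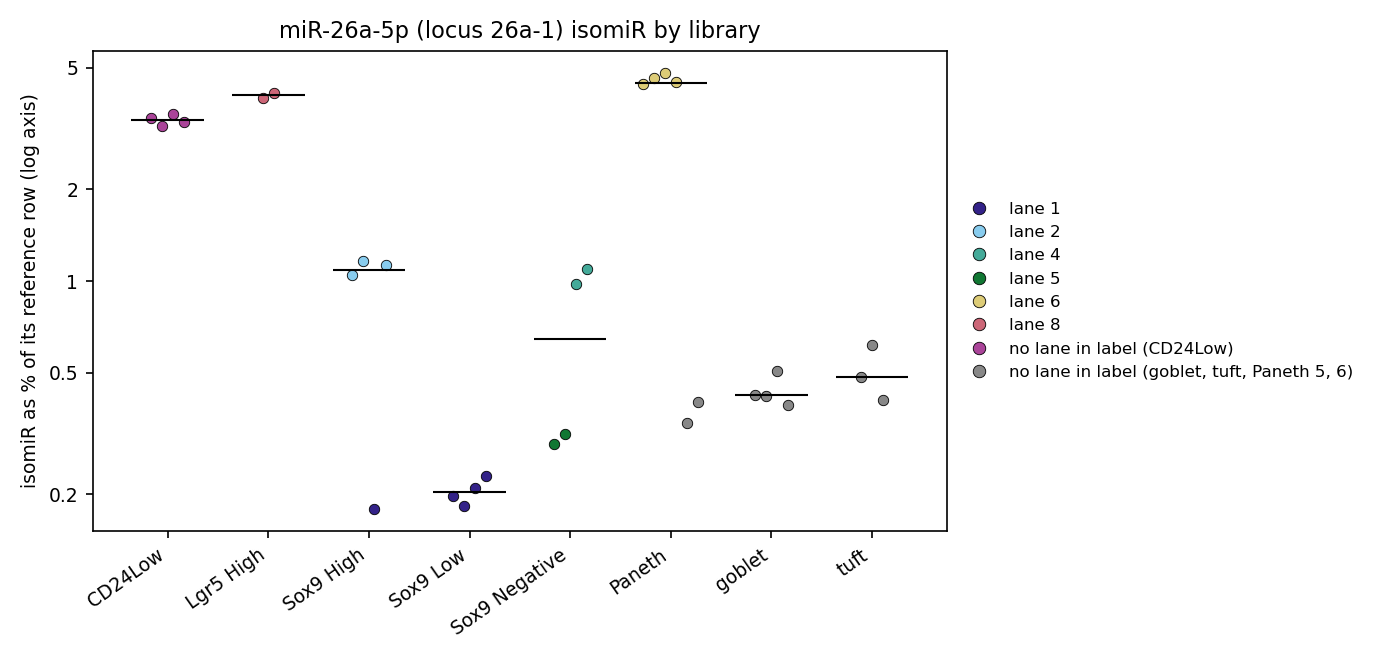
Early-start isomiR of miR-26a-1-5p as a percentage of its reference entry (logarithmic y axis) in each of 31 libraries, by population on the x axis. Points are libraries coloured by label group and bars are population medians; Paneth, Sox9 High and Sox9 Negative libraries split by label group, with Paneth 1 to 4 at 4.43% to 4.82% and Paneth 5 and 6 at 0.342% and 0.402%.

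Ordered by label group, the miR-26a-1 isomiR fell into narrow bands. It held 0.179% to 0.230% of reference in the 5 libraries of lane 1, 0.293% to 0.316% in lane 5, 0.342% to 0.616% in the 9 libraries of the shared format, 0.975% to 1.10% in lane 4 and 1.04% to 1.16% in lane 2. CD24Low libraries followed at 3.22% to 3.52%, then lane 8 at 3.99% to 4.15% and lane 6 at 4.43% to 4.82%. Neighbouring bands overlapped only for lanes 4 and 2. Over the same libraries the reference entry varied 3.85-fold while the percentage varied 27.0-fold. The miR-26a-2 isomiR gave nearly the same values, since its reads were identical in number to those of miR-26a-1 in 13 of 31 libraries and differed by at most 6.98%. The 2 loci differ in the base before the mature miRNA (g and a in the sequences above), so entries with equal reads cannot be taken as separate measurements of the loci. Nor are the counted reads shown to carry the first bases printed above.

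In RefSeq, miR-26b-5p shares the shifted seed UUCAAGU and the preceding g with miR-26a-1. Its bands had a similar order where it was listed. However, lanes 2 and 4, which overlapped for both miRNAs, changed places by their medians, and its lane 8 values lay at the top of the range of lane 6. Its isomiR was 2.51% to 2.64% of reference in CD24Low, 3.22% to 3.23% in lane 8 and 2.66% to 3.22% in lane 6. It was 0.581% to 0.590% in lane 2, 0.571% to 0.696% in lane 4 and 0.136% to 0.149% in lane 5. In lane 1 it was listed in 3 of 5 libraries at 0.0629% to 0.103%, and in the shared format in 3 of 9 at 0.189% to 0.308%. The unlisted libraries of the shared format had upper limits from 0.181% (goblet 3) to 0.975% (tuft 3), so their place in this order is not known. For let-7i-5p, a member of the let-7 family with another seed, the isomiR was 0.410% to 0.613% in CD24Low, 0.353% to 0.398% in lane 6 and 0.228% to 0.511% in lane 8. It was 0.0764% to 0.104% in lane 2, 0.0849% to 0.102% in lane 4, 0.0324% in 1 of 2 libraries of lane 5, 0.0195% in 1 of 5 of lane 1 and 0.0304% to 0.0330% in 2 of 9 of the shared format. For let-7i, too, CD24Low and lanes 6 and 8 were high, and lane 1, lane 5 and Paneth 5 and 6 of the shared format low. Goblet and tuft libraries did not list it. Their upper limits of 0.101% to 0.229% reached above lanes 2 and 4, so these libraries are not shown to be low. Other members did not follow this order: in lane 6, where miR-26a-1 was highest, let-7d-5p (0.761% to 0.886%), miR-141-3p (0.852% to 0.963%) and miR-375-3p (4.32% to 5.20%) had their lowest medians. miR-26b and let-7i were picked after their values were seen.

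By Pearson's r of log2 percentages with miR-26a-1 over at least 20 libraries, the closest members were miR-26a-2 (1.00 over 31), miR-26b (0.993 over 23), let-7c-2-5p (0.953 over 20), miR-92a-1-3p (0.939 over 22), let-7f-1-5p (0.899 over 22) and miR-148a-3p (0.892 over 21). The lowest values were those of miR-375-3p (-0.468 over 31), miR-1843b-5p (-0.399 over 28) and miR-141-3p (-0.335 over 31). These correlations describe libraries that share lanes and depths, and likeness was looked at after the values of miR-26a had been seen.

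Label groups within 1 population were then compared directly, a comparison added after the data had been seen. limma's moderated test was run on log2 ratios of every offset entry listed with its reference in all 24 libraries of the 6 deeper populations, with Benjamini-Hochberg adjustment over 130 entries. Of all entries 43.1% were called, and of the 19 members tested 8, a share near this background. They were miR-26a-1, miR-26a-2, miR-215-5p, miR-378-3p, miR-192-5p, let-7d-5p, miR-375-3p and miR-194-2-5p. For miR-26a-1 (limma adjusted p = 4.39e-16) the log2 difference was 3.63 between Paneth libraries 1 to 4 and 5 to 6, 2.64 between Sox9 High libraries in lanes 2 and 1, and 1.76 between Sox9 Negative libraries in lanes 4 and 5. The Sox9 High difference sets 3 libraries against 1, Sox9 High 3, whose code is also the only one of that fraction with HFD, so lane and this label cannot be told apart there. For miR-215-5p, an intestinal miRNA related to miR-192, the same differences were 2.72, 0.40 and 0.51 (limma adjusted p = 2.06e-09). miR-141-3p, miR-200c-3p and miR-101a-3p did not pass, with the largest of the 3 differences at -0.46 for miR-141, 0.49 for miR-200c and 0.56 for miR-101a. For miR-375-3p, which was called, the largest was -0.43, so not passing does not mean a smaller difference.

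Lane 1 held libraries of 2 populations and allowed a comparison within 1 lane number. Sox9 High 3 was set against the 4 Sox9 Low libraries, also added after the data had been seen. The lone library is assumed to vary like the other libraries, and it had already been seen to stand with Sox9 Low for miR-26a, so the value for miR-26a restates that observation. Of the 130 entries 1.54% were called, and of the 19 members 0, with 2 members (miR-21-5p and miR-151-3p) at an unadjusted p under 0.05 by limma. For miR-26a-1 the log2 difference of Sox9 High 3 to Sox9 Low was -0.19 (SE 0.13, limma adjusted p = 0.447). Over all lanes the medians of the populations were 1.08% and 0.204%. Sox9 High 3 carries HFD in its code, as does 1 of these Sox9 Low libraries.

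Paneth cells, which secrete antimicrobial peptides at the base of the crypt, were the population with the most libraries and with 2 formats of code. In the fit over 8 populations with Paneth split by format, 7.55% of 53 entries and 2 of 6 members were called between Paneth 1 to 4 and Paneth 5 to 6, namely miR-26a-1 and miR-26a-2, both higher in Paneth 1 to 4 by 3.63 and 3.64 (log2, SE 0.53, limma adjusted p = 9.80e-06 for both). In the fit over 6 populations 20% of 130 entries and 7 of 19 members were called higher in Paneth 1 to 4, a larger share of the members, of which 2 are the miR-26a copies. Beside both miR-26a entries these were miR-215-5p (2.72), miR-378-3p (2.40), miR-345-3p (1.30), miR-192-5p (1.18) and miR-194-2-5p (1.03). Total reads were similar in both formats, 2575073 to 3627730 in Paneth 1 to 4 and 2926745 and 3862826 in Paneth 5 and 6.

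Over the 44 members listed in all 6 Paneth libraries, 28 were higher in each of Paneth 1 to 4 than in both of Paneth 5 and 6, 5 were lower and 11 overlapped. Among all 217 offset entries so listed, 57.6% were higher and 9.22% lower. The median fold over members was 1.70 and over all entries 1.45. The largest folds were 14.0 for miR-26b, 12.3 for both miR-26a entries, 11.8 for let-7i, 6.59 for miR-215-5p, 5.44 for let-7f-1-5p, 5.29 for miR-200a-3p and 5.05 for miR-378-3p. The 5 lower members were miR-141-3p (0.802), miR-375-3p (0.726), let-7d-5p (0.649), miR-1839-5p (0.646) and miR-423-3p (0.644). Rare isomiRs and frequent ones differed here. Of the 23 members with a median percentage of at most 1% over all libraries, all 23 were higher in Paneth 1 to 4, with a median fold of 4.20. Of the 21 above 1%, 5 were higher, 5 were lower and 11 overlapped, with a median fold of 0.992. The split at 1% was chosen after the values were seen, and the libraries behind the median include these 6. All offset entries were not split in this way. Whether the difference is particular to early-start isomiRs or holds for any rare offset entry was therefore not tested.

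**Figure D3:**
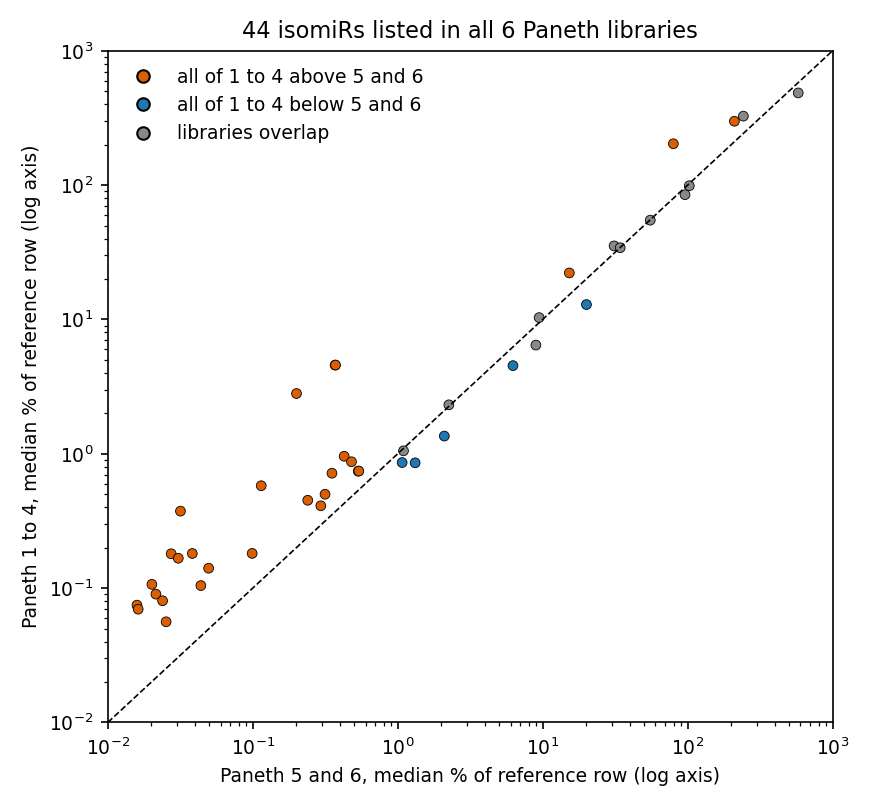
Percentage of reference in Paneth 5 and 6 against Paneth 1 to 4 for the 44 members listed in all 6 libraries, as medians on logarithmic axes. The dashed line marks equality and colours show whether the 2 sets of libraries overlapped; 28 members were higher in Paneth 1 to 4, 5 were lower and 11 overlapped, and the members far from the line have low percentages.

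Across the 8 populations the F-test of limma called 92.5% of the 53 offset entries listed in every library, and all 6 members among them. A call was thus the usual outcome, and the size and order of the differences are what tells members apart. The spread between the highest and lowest population mean (log2) was 4.32 and 4.33 for miR-26a-1 and miR-26a-2 (limma adjusted p = 5.37e-05), 2.18 for miR-141-3p (5.24e-08), 1.31 for miR-200c-3p (3.60e-05), 1.05 for let-7d-5p (0.000156) and 0.64 for miR-375-3p (0.0022). The median spread was 1.75 over the 6 members and 2.17 over all 53 entries. Against the mean of the other 7 populations, 20.8% of 424 tests of an entry in a population were called, and 9 of 48 for members. Of these calls 8 were those of miR-26a, 4 for each copy. The miR-26a-1 isomiR was higher in Lgr5 High libraries (log2 difference 2.47, SE 0.74, limma adjusted p = 0.00811), where 24.5% of the 53 entries were called higher, and in CD24Low libraries (2.16, SE 0.55, limma adjusted p = 0.00187), where 22.6% were. It was higher in Paneth libraries (1.29, SE 0.47, limma adjusted p = 0.0249), where 5.66% of entries were called higher, and lower in Sox9 Low libraries (-2.46, SE 0.55, limma adjusted p = 0.000761), where 11.3% were called lower. With Paneth 5 and 6 as the only Paneth libraries the Paneth difference of miR-26a-1 was -1.13, and the Paneth call was lost without any single one of Paneth 1 to 4 (adjusted p up to 0.0917). Without Lgr5 High 1 the call in Lgr5 High was lost (adjusted p = 0.0616).

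The remaining call was that of miR-141-3p in Paneth cells. miR-141 belongs to the miR-200 family, which maintains the epithelial state by repressing the transcription factors Zeb1 and Zeb2. Its isomiR was 0.852%, 0.854%, 0.963%, 0.867%, 0.984% and 1.16% of reference in Paneth 1 to 6. It was 3.95%, 5.73%, 3.61% and 4.02% in Sox9 High, 2.78%, 3.25%, 4.12% and 3.63% in Sox9 Low and 3.22%, 5.03%, 2.76% and 3.09% in Sox9 Negative libraries. All 6 Paneth libraries, of both code formats, lay below all others. CD24Low libraries gave 3.00%, 3.42%, 3.52% and 3.41%, Lgr5 High 2.19% and 2.37%, goblet 2.05%, 2.43%, 2.02% and 1.55%, and tuft 1.88%, 1.78% and 5.20%. The mean was 0.947% ± 0.120 (SD, n = 6) in Paneth, 3.34% ± 0.230 (n = 4) in CD24Low and 4.33% ± 0.955 (n = 4) in Sox9 High libraries. The log2 difference of Paneth to the mean of the others was -1.65 (SE 0.16, limma adjusted p = 9.5e-09), -1.74 with Paneth 1 to 4 only and -1.46 with Paneth 5 and 6 only. In this contrast 11.3% of the 53 entries were called lower. miR-141 was the only 1 of the 53 entries (1.89%) for which all 6 Paneth libraries lay below the other 25. The normalised value of the reference was higher in Paneth than in Sox9 High libraries (means 27328 and 15810) and that of the isomiR lower (262 and 653).

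miR-200c-3p, which lies beside miR-141 on chromosome 6 and differs from it within the seed, was lower in Paneth libraries too but did not separate from other populations. Its isomiR was 0.817%, 0.730%, 0.734%, 0.753%, 0.532% and 0.546% of reference in Paneth 1 to 6 and 0.529% to 0.807% in goblet libraries, so Paneth and goblet libraries overlapped. Sox9 High libraries had 1.11% to 1.88%, Sox9 Low 0.671% to 1.40%, Sox9 Negative 1.54% to 1.62%, CD24Low 1.34% to 1.59%, and Lgr5 High 1.25% and 1.30%. The lowest of all 31 libraries, at 0.504%, was a tuft library. The log2 difference of Paneth to the mean of the others, -0.73, was below the size called. That of goblet was -0.84 and that of tuft -0.53, so the low percentage was not particular to Paneth libraries. Of the 8 entries of the miR-200 family with this suffix, 5 were members, and their median percentages were 0.0556% for miR-200a-3p, 0.106% for miR-200b-3p, 0.421% for miR-429-3p, 1.25% for miR-200c-3p and 2.78% for miR-141-3p. Members of 1 family thus ranged widely, with miR-141 and miR-200c, of the chromosome 6 pair, above the other 3.

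miR-375-3p is the hallmark miRNA of endocrine cells. Among the 6 members listed in all libraries it had the widest range of reference level and the narrowest range of percentage. Its reference ranged from 2964 to 528850, a 178-fold range, while the isomiR stayed at 4.32% to 9.75% of it, a 2.26-fold range. The mean reference value was 3627 in Sox9 Negative and 303242 in Sox9 High libraries. The isomiR was 6.21% to 9.75% in Sox9 Negative, 4.32% to 5.20% in Paneth 1 to 4 and 6.14% and 6.34% in Paneth 5 and 6. The Paneth difference to the other populations was -0.36 on the log2 scale, and the 2 Paneth formats did not overlap.

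let-7d-5p is a let-7 miRNA, a family that restrains growth and rises with differentiation. Its isomiR was 0.866%, 0.886%, 0.761%, 0.846%, 1.34% and 1.30% of reference in Paneth 1 to 6, 1.77% and 2.29% in Lgr5 High, 1.74% to 2.05% in CD24Low and 0.801% to 1.52% in tuft libraries. Paneth 1 to 4 were low beside CD24Low and Lgr5 High libraries, and Paneth 5 and 6 lay between them and overlapped tuft. The Paneth difference was -0.68. Of 16 let-7 and miR-98 entries with this suffix 12 were members, with a median percentage of 0.0907% and a highest of 2.09%.

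**Figure D4:**
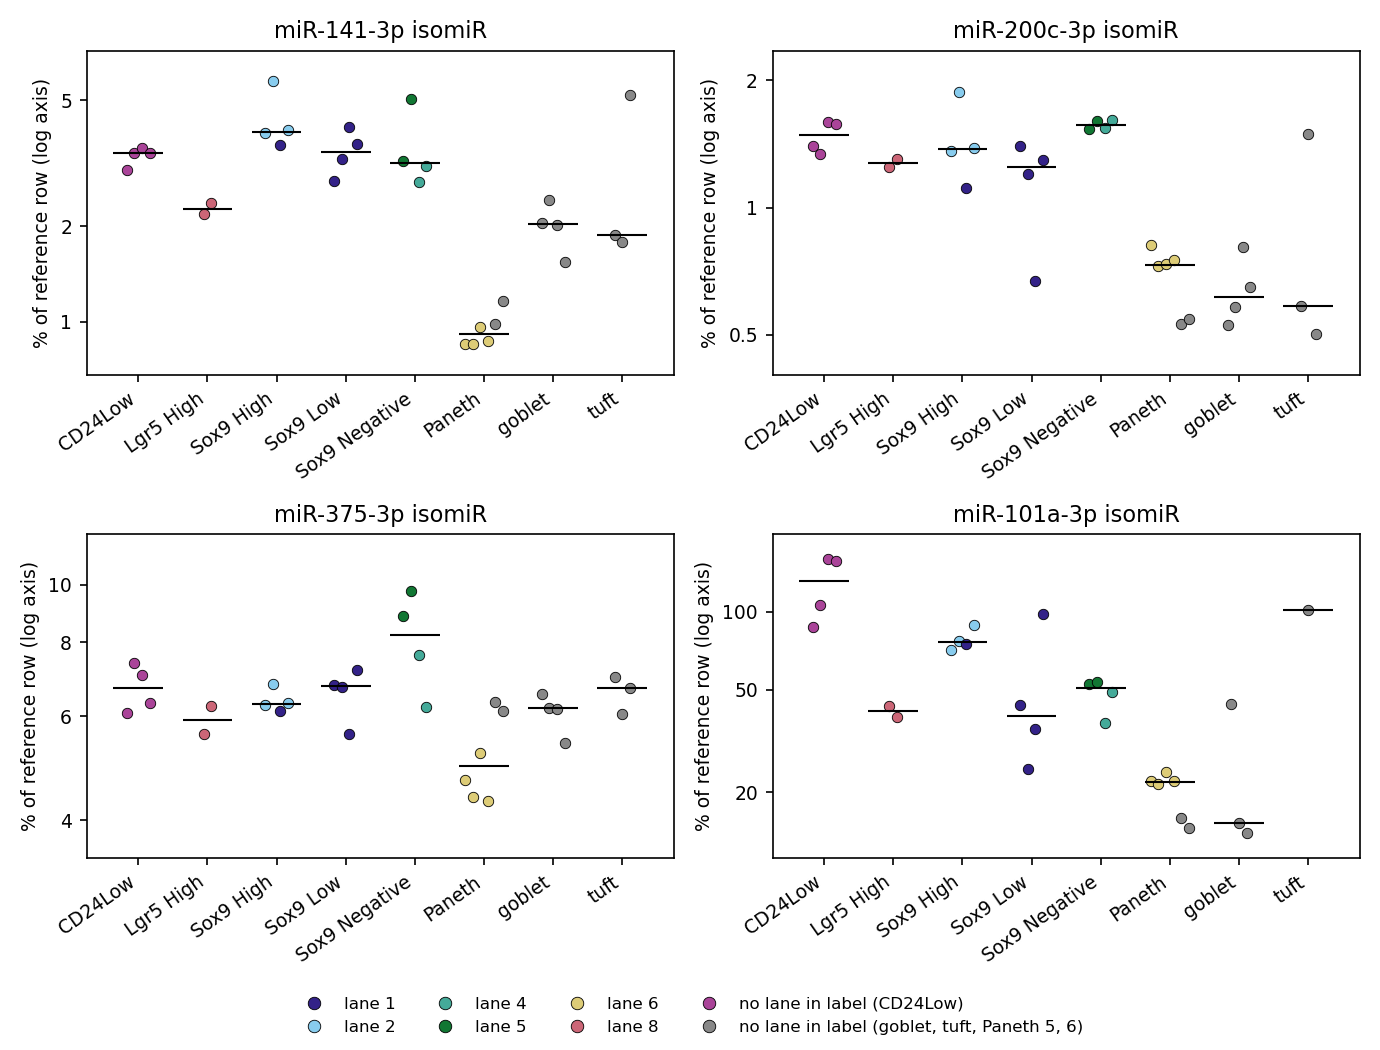
Early-start isomiRs of miR-141-3p, miR-200c-3p, miR-375-3p and miR-101a-3p as a percentage of reference (logarithmic y axes) by population. Points are libraries coloured by label group and bars are medians; for miR-141-3p all 6 Paneth libraries, at 0.852% to 1.16%, lie below the other 25.

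With goblet and tuft libraries left out, 19 members were listed in all 24 libraries, and 84.6% of 130 entries and 16 of the 19 members were called across the 6 populations. The 3 not called were let-7g-5p (limma adjusted p = 0.0714), mir-3096b-5p (0.154) and miR-192-5p (0.803). The smallest adjusted p-values of members were those of miR-141-3p (6.93e-10) and miR-101a-3p (4.69e-07, spread of means 2.64). The median spread was 1.30 over the 19 members and 1.90 over the 130 entries.

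miR-101a-3p is a regulator of the histone methyltransferase Ezh2 in several tissues, and its isomiR came close to its reference. The miRNA lies at chr4:101346957-101346977 on the minus strand, in an exon of the non-coding RNA E130102H24Rik. The isomiR was 14.6% to 24.1% of reference in Paneth, 39.2% and 43.1% in Lgr5 High, 37.0% to 53.7% in Sox9 Negative, 24.7% to 98.2% in Sox9 Low, 71.0% to 88.7% in Sox9 High and 87.6% to 160% in CD24Low libraries. Paneth libraries of both formats were below every other library of these 6 populations, and the wide range of Sox9 Low overlapped all of the others except Paneth. Goblet cells gave 14.0% to 43.8% in the 3 libraries that listed it and tuft cells 101% in 1 library. Mean reference values were 1721 in Paneth and 75.8 in CD24Low libraries, and mean isomiR values were 345 and 90.4. The reference thus moved more between these populations than the isomiR. miR-101b-3p, from an intron of Rcl1 (chr19:29135338-29135356, plus strand), stood at a median 45.8% (30.8% to 102%). Its RefSeq mature miRNA starts 1 base before that of miR-101a, so that the early start of miR-101a gives the seed UACAGUA, which is the unshifted seed of miR-101b.

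The 3 Sox9 fractions were compared because Sox9 level separates cells along the crypt. In the fit over 6 populations 44.6% of 130 entries and 2 of 19 members were called, a smaller share of the members. miR-21-5p, a miRNA often raised in inflamed and growing tissue, had an isomiR of 0.505%, 0.405%, 0.430% and 0.581% of reference in Sox9 High, 0.292%, 0.224%, 0.123% and 0.309% in Sox9 Low, and 0.348%, 0.400%, 0.375% and 0.387% in Sox9 Negative libraries. All Sox9 High libraries lay above all others of the 3 fractions and all Sox9 Low libraries below, with a spread of means of 1.09 (log2, limma adjusted p = 0.00476). The lowest value, Sox9 Low 3, rested on 16 reads. miR-27b-3p gave 0.819%, 1.32%, 0.713% and 1.06% in Sox9 High, 0.751%, 1.12%, 0.811% and 1.26% in Sox9 Low, and 0.455%, 0.535%, 0.492% and 0.545% in Sox9 Negative libraries. Sox9 Negative libraries were thus below both other fractions, which overlapped (spread 0.93, limma adjusted p = 0.00704). Within lane 1 the log2 difference of Sox9 High 3 to Sox9 Low was 0.94 for miR-21 (SE 0.34, limma adjusted p = 0.111) and -0.43 for miR-27b (SE 0.31, limma adjusted p = 0.467), and the Sox9 Negative lanes hold no other fraction. With values under 100 raised to 100, miR-27b was not called (limma adjusted p = 0.373). For miR-26a-1 the adjusted p across the fractions was 0.112. Without Sox9 High 3, 4 members were called, the 2 above and both miR-26a entries, and 8 with Paneth 1 to 4 as the only Paneth libraries in the fit.

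Goblet, tuft and Paneth 5 and 6 libraries share 1 code format, and 6 members were listed in all 9 of them. In this comparison 21.4% of 56 entries and 0 of the 6 members were called by limma, and 0 members had an unadjusted p under 0.05, the smallest being 0.0542 for miR-141-3p (adjusted p = 0.117). The tuft libraries differed among themselves, with a miR-141 isomiR of 5.20% in tuft 4 beside 1.88% and 1.78% in tuft 1 and 3. Without tuft 3, 2 members were called, among them miR-141 (adjusted p = 0.0497). Without tuft 1, let-7d was called (adjusted p = 0.0470). Within this format, Paneth 5 and 6 had the lowest miR-141 values, 0.984% and 1.16%, and goblet libraries started at 1.55%.

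Several members are copies of 1 mature miRNA. The isomiR reads of miR-103-1-3p and miR-103-2-3p were identical in 14 of 17 libraries, those of the miR-199a-1 and miR-199b entries in 6 of 6, and those of miR-29b-1-3p and miR-29b-2-3p in 9 of 9. Each such pair is 1 measurement. miR-194-5p, an epithelial miRNA with 2 loci, behaved otherwise. miR-194-1 lies at chr1:185313325-185313346 in an intron of Iars2 on the opposite strand, and miR-194-2 at chr19:6264658-6264679, both on the plus strand. The base before the mature miRNA is g at the first and c at the second. The isomiR of miR-194-2 held a median 1.70 times the reads of that of miR-194-1 (0.925 to 7.05 over 25 libraries), although its reference held 0.462 times (0.129 to 0.892). As percentages of reference the medians were 0.453% for miR-194-2 and 0.0966% for miR-194-1. The mature miRNA is the same at both loci, and how its reads were divided between the 2 reference entries was not given in the sources used here. These percentages are therefore not shown to differ between the loci themselves. Between the let-7 copies the ratio of isomiR reads was nearer to 1, with medians of 0.797 for let-7a-2 over let-7a-1, 0.839 for let-7c-2 over let-7c-1 and 1.39 for let-7f-2 over let-7f-1.

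Other families listed in the rule for naming also gave mostly rare early starts. The miR-192, miR-215 and miR-194 families, which mark the intestinal epithelium, had 7 members of 8 entries, with a median of 0.137% and a range of 0.0429% to 7.40%. miR-30 had 3 members of 9 entries (median 0.218%), miR-148 and miR-152 had 4 of 5 (0.401%), miR-375 and miR-7 had 4 of 5 (0.162%), and the miR-17, miR-92, miR-106 and miR-25 families, which promote proliferation, had 7 of 15 (0.735%). The base before the mature miRNA was C in 30, G in 26, A in 16 and U in 16 of the 88 members with a known base, with median percentages of 2.78%, 0.494%, 1.45% and 2.01%. These members share arms, families and copies and were chosen by isomiR level, and no test was made.

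The shifted seed of 9 of the 88 members equalled the seed of another mouse miRNA in RefSeq. For miR-103-1-3p and miR-103-2-3p the early start gives AGCAGCA, the seed of miR-15a, miR-15b, miR-16, miR-195a, miR-195b, miR-322 and miR-497a, a family that restrains the cell cycle. miR-103-1 lies at chr11:35782447-35782469 on the plus strand in an intron of Pank3. Its isomiR stood at a median 0.25% of reference or below for both copies, in 17 and 18 libraries. The other 7 were miR-101a-3p, miR-1843b-5p (miR-1843a-5p), miR-378b (miR-378c), miR-29b-2-5p (miR-29b-1-5p), miR-34a-5p (miR-3069-5p), miR-181d-5p (miR-543-3p) and miR-674-5p (miR-713). A shared seed is a property of the letters and no target was measured.

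The libraries had the miRNA make-up of epithelium throughout. miR-192, miR-194, miR-215 and the miR-200 family held 20.3% to 73.6% of the summed value of a library, and miR-375 and miR-7, of endocrine cells, 0.329% to 20.6%. Marker miRNAs of leukocytes, endothelium, stroma and erythroid cells each held at most 0.0964%, and those of endothelium were at 0 in Paneth, goblet, tuft and Sox9 Negative libraries. Markers of the single lineages were not among these lists, so the labels of the sorted lineages were not tested.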

How the data were processed

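Small RNA of 31 sorted bulk libraries was measured, and the deposited table holds their signal per miRNA and isomiR. Ligation used the TriLink CleanTag kit, per the labels' protocols. The deposited signal is a scaled read count: within a library 100% of the values are whole multiples of 1 step, within 0.001 reads, so the authors applied 1 factor per library, and nothing under 10 reads is listed. The aligner, counter and scaling tool were not given in the sources used here, and mm9 is the build in the submitters' processing notes. Sequences and positions come from RefSeq, GRCm38.p6. A further 3 columns match no sample and were not used. 3 Progenitor samples and the single-cell samples were not analysed here.

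Each offset entry was divided by the entry of its name without an offset in the same library, so the library factor cancels. An isomiR that was not listed has a limit of 9 reads over the reference reads. Entries listed with their reference in every library used were fitted on the log2 ratio with limma 3.58.1 (R 4.3.3), group means, a trend in the prior variance and two-sided tests. Adjustment (Benjamini-Hochberg) ran over all offset entries fitted, and members were read out of it. F-tests were called at adjusted p under 0.05, contrasts also at an absolute log2 difference of at least 1. The scripts were tested on simulated data.

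The members, lists and tests were chosen with earlier results of these data known. The rule for named miRNAs took the most abundant members listed in all libraries, the 5 smallest adjusted p across 8 populations, the largest called differences, members above their reference, families and copies. Others, among them miR-26b, let-7i, miR-21, miR-27b, miR-101a and miR-101b, were named after their values were seen. Whether samples came from separate animals is not stated in the labels, nor whether the code shared by same-numbered Sox9 libraries marks an animal, and p-values reflect only the variation among these samples, which may be technical. Alternatives were a pseudocount of 1, no listing filter, values under 100 raised to 100, a mean of at least 100, another denominator, no trend, a replicate block and each library left out in turn.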

Additional observations from a re-analysis of the deposited data

Results flagged for a closer look

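Groups of 4 to 10 libraries were looked at in 57 cases for a library far from the others, and 3 were found, where chance gives about 1 in 20. Sox9 High 3 had the lowest miR-26a-1-5p isomiR of its population, at 0.179% of reference, where the next library had 1.04%. The same library was lowest for miR-26a-2-5p, at 0.179% beside 1.04%, on the same 100 isomiR reads, so that both are 1 measurement. It is the only Sox9 High library of lane 1 and the only one with HFD in its code. Sox9 Negative 3 had the highest miR-101b-3p isomiR of its population, at 51.8%, where the other 3 had 41.7% to 42.7%. That library also carries HFD, and the Sox9 Low library with HFD was not among those found.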

How the results depend on the processing

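The counts of called members depend on which members enter the fit. Shares over all offset entries are not given for these settings, so the counts are not read as a result about the members. Without the listing filter a pseudocount of 1 was added and unlisted entries were kept, so library depth enters those ratios. With no listing filter the called members were 81 of 113 across 8 populations, 54 of 112 across 6, 216 calls against the other 7 populations, 16 across the Sox9 fractions, 7 of 53 in the shared format, 22 of 113 between the Paneth formats, 33 of 112 between label groups and 4 of 112 in lane 1. With values under 100 raised to 100 they were 36 of 41, 33 of 40, 68, 19, 5 of 24, 8 of 41, 14 of 40 and 4 of 40, in the same order. With Paneth 1 to 4 as the only Paneth libraries there were 14 calls against the other populations and 8 members across the Sox9 fractions, and with Paneth 5 and 6 only the Paneth difference of miR-26a turned to -1.13 (miR-26a-1) and -1.13 (miR-26a-2). The fit over 6 populations called 7 of 19 members between the Paneth formats. Leaving out each library in turn gave 6 to 7 members across 8 populations, 11 to 16 across 6, 7 to 11 calls against the other populations, 2 to 4 across the Sox9 fractions (4 without Sox9 High 3), 0 to 2 in the shared format, 2 to 2 between Paneth formats, 7 to 11 between label groups and 0 to 0 in lane 1. For single members, 1969 results were unchanged when a library was left out, counting those that stayed uncalled. A call was lost in 65 and gained in 20.

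Same-numbered Sox9 libraries share a code whose meaning the labels do not state, and had residual correlations of -0.601 to 0.527, so the numbers were not taken as a pairing; with the number as a replicate block the called members were 6 across 8 populations, 13 across 6 and 3 across the fractions. A count test on reads was not run, nor the label-group and lane 1 comparisons without Sox9 High 3. Depth limits goblet and tuft libraries most: a member not listed there may hold up to 9 reads.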
